A study of Mus musculus with 18 samples.

Results

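Expression of 10 genes of resident and scavenging macrophages was followed through RNA sequencing of isolated mouse heart cells. They were found by symbol, and all 10 of 10 were present among the 19094 genes of the deposited table: Mrc1, Cd163, Lyve1, Timd4, Folr2, F13a1, Marco, Cd5l, Siglec1 and Mertk. The set was chosen by cell type knowledge together with the measured levels of Marco and Cd5l, which were lower in fibroblast libraries of Bag3-P209L Tg+ mice than in those of controls, so every value of that genotype comparison is given below as a description without a test. The study isolated cardiomyocytes and cardiac fibroblasts from the hearts of 6 mice aged 16 months, 3 carrying the Bag3-P209L transgene (Tg+) and 3 Bag3-WT controls. Of the 18 libraries 6 were from fibroblasts, 1 a mouse, and 12 from cardiomyocytes, 2 a mouse (named rep1 and rep2 by the labels). The libraries of a mouse's cardiomyocytes were summed, which left 12 columns of data, and the mouse was the unit of replication. Mice are called Tg mouse 1, 2 and 3 and WT mouse 1, 2 and 3. The animal codes contain the letter F for Tg mouse 1, Tg mouse 3 and WT mouse 1 and the letter M for the other three. The sources used here state neither the promoter and species of the transgene nor how its reads were assigned. Neither preparation was a sort for macrophages, so the member genes report on macrophage RNA present in preparations of other cells. In such bulk samples fewer macrophages and less RNA per macrophage cannot be told apart.

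Resident macrophages live within the heart, take up dying cells and debris and renew largely in place, under growth factor signals through the CSF1 receptor. Several members are endocytic or scavenger receptors. Mrc1 (the mannose receptor, CD206) binds glycoproteins with mannose ends, Cd163 clears complexes of haemoglobin and haptoglobin, and Marco is a class A scavenger receptor that binds bacteria and particles and is known from macrophages of the lung, spleen and lymph nodes. Siglec1 (sialoadhesin, CD169) binds sialic acids on other cells and on pathogens. Timd4 (TIM-4) binds phosphatidylserine on apoptotic cells, and Mertk is a receptor tyrosine kinase that engulfs such cells through the bridging proteins Gas6 and Pros1. Cd5l (AIM) is a secreted protein of tissue macrophages with scavenger receptor cysteine-rich domains. Lyve1 is a hyaluronan receptor shared by lymphatic endothelium and by macrophages along vessels, Folr2 is the folate receptor beta, and F13a1 encodes the A subunit of coagulation factor XIII. Timd4, Lyve1 and Folr2 are widely used to mark long-lived resident macrophages of the heart.

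Promoter sequences are shown for Marco and Cd5l, the pair on which the choice of the set turned, and for Folr2, whose levels followed the general macrophage genes. Each is the 250 bases before the start site in RefSeq, on GRCm38.p6, written 5′ to 3′ on the gene's strand. Capitals mark AGGAAGT, a core motif of the macrophage transcription factor PU.1, found by a search of both strands. The Marco window is chr1:120505025-120505274 on the minus strand, the Cd5l window chr3:87357631-87357880 on the plus strand and the Folr2 window chr7:101857191-101857440 on the minus strand.
Marco: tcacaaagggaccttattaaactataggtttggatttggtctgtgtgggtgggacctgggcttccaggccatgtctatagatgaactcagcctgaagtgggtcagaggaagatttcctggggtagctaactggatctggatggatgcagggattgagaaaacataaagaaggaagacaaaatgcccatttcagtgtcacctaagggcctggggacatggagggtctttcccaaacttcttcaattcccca
Cd5l: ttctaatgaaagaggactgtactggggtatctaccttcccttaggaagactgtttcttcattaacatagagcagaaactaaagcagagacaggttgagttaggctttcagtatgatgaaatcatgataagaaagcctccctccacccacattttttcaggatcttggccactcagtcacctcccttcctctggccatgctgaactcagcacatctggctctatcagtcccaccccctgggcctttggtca
Folr2: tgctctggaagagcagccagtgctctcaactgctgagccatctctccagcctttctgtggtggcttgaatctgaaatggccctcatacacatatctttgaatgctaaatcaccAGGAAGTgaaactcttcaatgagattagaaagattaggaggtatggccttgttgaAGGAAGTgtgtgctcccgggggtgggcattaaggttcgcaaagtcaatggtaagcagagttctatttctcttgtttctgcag
RefSeq promoters were matched for 8 of the 10 members (10 windows, since Folr2 and F13a1 have 2 each), and Lyve1 and Siglec1 had no entry. AGGAAGT occurred in 3 of the 10 windows: the printed one of Folr2 (first bases at -137 and -82 from the start site), that of Mrc1 (-211) and the second of F13a1 (-36). The other windows of Folr2 (chr7:101845332-101845581, not printed) and F13a1 held no match. The same letters were present in 7.686% of all 32851 promoter windows of this length. The MAF half-site TGCTGAC was found once, in the Timd4 window at -45, against 3.811% of all windows. Neither the NF-kappaB consensus motif (0.356% of all windows) nor TATAAA (12.368%) was present in a member's window. The motifs do not overlap one another in these windows. A match describes the letters only.

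Positions were taken from GRCm38 (GENCODE M21 annotation). Marco (ENSMUSG00000026390.7) spans chr1:120474538-120505024 on the minus strand and Cd5l (ENSMUSG00000015854.7) chr3:87357881-87371073 on the plus strand. Chromosome 2 holds Mrc1 (chr2:14229392-14332057, plus strand), Mertk (chr2:128698956-128802894, plus strand) and Siglec1 (chr2:131069220-131086765, minus strand). Folr2 (chr7:101839988-101857194) and Lyve1 (chr7:110850607-110863239) are on the minus strand of chromosome 7. Cd163 (chr6:124304656-124330527) and Timd4 (chr11:46810800-46844332) are on plus strands, and F13a1 (chr13:36867178-37050244) is on the minus strand. Antisense genes overlap Folr2 (Gm10602), F13a1 (Gm49144 and Gm30489) and Mertk (Gm14011), and no source used here says whether counting used strand, so reads of these pairs may be mixed.

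The columns held 10.9 to 17.2 M counts in cardiomyocytes and 17.3 to 61.3 M in fibroblasts. Mitochondrial genes took 51.7 to 85.5% of the counts in cardiomyocytes and 16.7 to 74.2% in fibroblasts, so the nuclear counts behind a member's value were 2.26 to 7.79 M and 11.3 to 15.8 M. Levels are CPM, counts per M after TMM scaling over the 12 columns, and 3 counts, the upper limit that a count of 0 allows, stood for 0.118 to 0.445 CPM in cardiomyocytes and 0.0825 to 0.111 CPM in fibroblasts (counting error only). Bag3 itself, in CPM, was 61.9, 46.8 and 77.1 in Tg+ and 131, 48.6 and 43.0 in Bag3-WT cardiomyocytes, and 158, 221 and 89.8 in Tg+ and 101, 179 and 148 in Bag3-WT fibroblasts, so its level did not separate the genotypes. Fibroblast markers did not set the fibroblast libraries apart: of 8 such genes 3 were called higher and 1 lower in cardiomyocytes, and their summed CPM was 594 to 1966 in fibroblast libraries and 1684 to 6672 in the cardiomyocyte libraries. All 8 cardiomyocyte markers were higher in cardiomyocytes (median log2 fold change 1.93, edgeR adjusted p below 0.05). The cardiomyocyte library sum of Tg mouse 1 stood apart through airway genes, with 4398 counts of Scgb1a1 against 6 to 26 in the other 5 mice, and it had 0 counts of Marco.

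Macrophage genes were measured in both preparations. The 15 core macrophage genes (among them Csf1r, Adgre1, Cd68, C1qa and Lyz2, with no member included) summed to 2274 to 7239 CPM in fibroblasts and 448 to 1682 CPM in cardiomyocytes. The 10 members together summed to 667 to 2108 CPM and 123 to 442 CPM. The lowest value of both sums belonged to Tg mouse 3 in each cell type.

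Compared per kilobase of exon, the members of the set spanned a wide range of levels in Bag3-WT fibroblasts. Folr2 was the highest with 116 ± 24.3 CPM per kb (SD, n = 3), followed by F13a1 with 93.9 ± 19.7, and the ranges of this pair overlapped. Mrc1 (56.7 ± 11.4), Lyve1 (53.2 ± 13.9) and Cd163 (43.9 ± 16.3) came next, in CPM per kb, below the range of F13a1 and overlapping one another. Timd4 (15.1 ± 4.93) and Siglec1 (11.4 ± 2.40) overlapped, and Mertk (6.13 ± 1.75) lay below them on the same scale. Cd5l (1.33 ± 0.522) and Marco (0.927 ± 0.421) were the lowest and overlapped. The order held at its ends in Tg+ fibroblasts, where Folr2 was at 62.0 ± 22.3, Cd5l at 0.208 ± 0.128 and Marco at 0.137 ± 0.0403 CPM per kb. In Tg+ cardiomyocytes Lyve1 had the highest mean (16.8 ± 10.7 CPM per kb), within the range of Folr2 (16.1 ± 7.05), and in Bag3-WT cardiomyocytes Folr2 did (25.2 ± 3.89). In Tg+ fibroblasts the ranges of neighbours separated only below Cd163 and below Mertk. In Bag3-WT cardiomyocytes they separated below Lyve1, Mrc1, Cd163 and Timd4, and in Tg+ cardiomyocytes all neighbours overlapped.

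**Figure D1:**
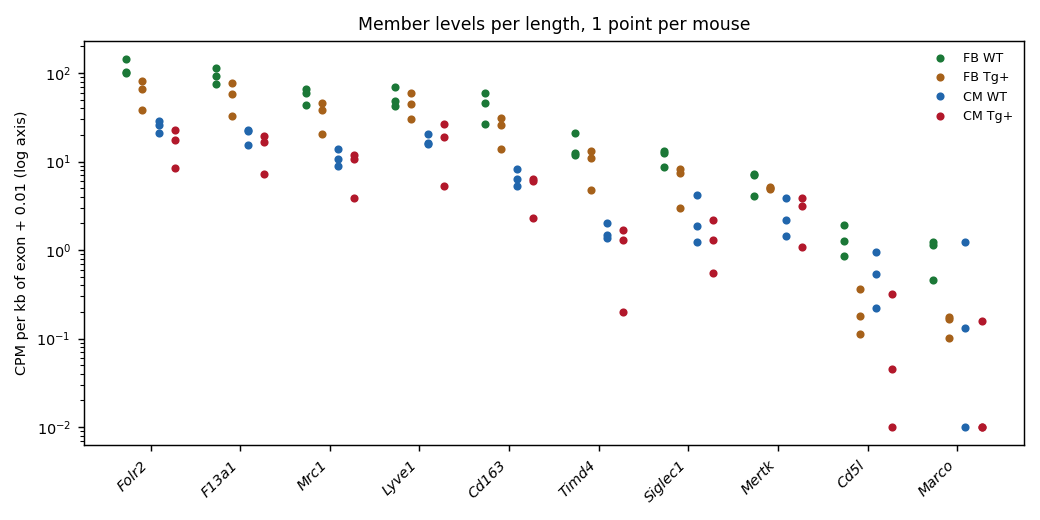
Level of each member in CPM per kilobase of exon plus 0.01 (log axis), ordered by the mean in Bag3-WT fibroblasts, with 1 point per mouse and 1 colour per cell type and genotype (FB fibroblast, CM cardiomyocyte). Folr2 and F13a1 are at the left with means of 116 and 93.9 in Bag3-WT fibroblasts, and Cd5l and Marco at the right with 1.33 and 0.927.

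**Figure D2:**
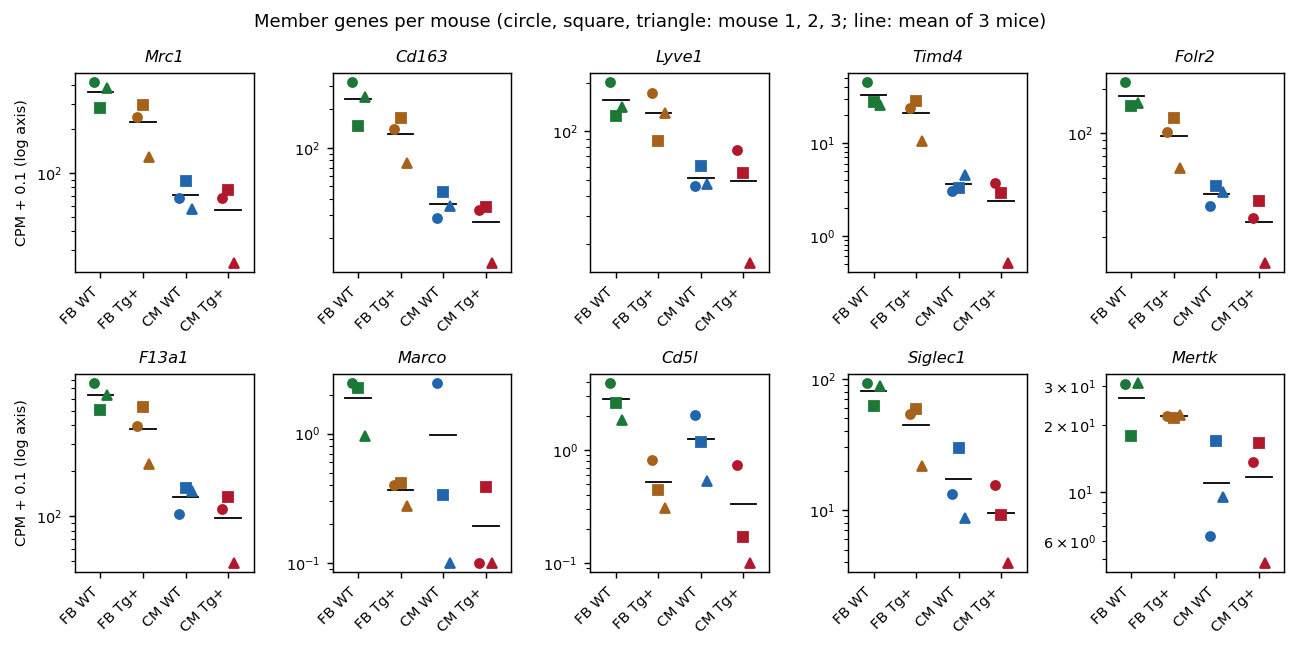
CPM plus 0.1 (log axis) of the 10 members in each of the 12 columns; circles, squares and triangles are mouse 1, 2 and 3 of a genotype and the line is the mean of 3 mice. Fibroblast columns lie above cardiomyocyte columns for 7 members with no overlap, and Marco and Cd5l are lower in Tg+ than in Bag3-WT fibroblasts.

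The first comparison asked how the members differ between the cell preparations of the same mice. In all, 8 of the 10 members fell in cardiomyocytes relative to fibroblasts: Timd4, Cd163, Siglec1, Mrc1, F13a1, Folr2, Lyve1 and Mertk (edgeR quasi-likelihood test within 6 mice, Benjamini-Hochberg adjusted p below 0.05 over 13891 genes). In this comparison 24.9% of all genes were called lower and 19.7% higher. The median log2 difference, cardiomyocyte minus fibroblast, was -2.10 over the 10 members and -0.04 over all genes. All 10 were below 0, as were 51.6% of all genes, and for 7 the cell types did not overlap, as was so for 15.8% of genes in this direction and 9.71% in the other. Each of the 8 called members also passed the filter on low counts within either cell type alone. Marco and Cd5l, also among the 10, did not pass it in cardiomyocytes alone, which favoured their values below 0. Cell type went together with library depth, mitochondrial share and the extra round of sequencing that the cardiomyocyte samples received, and these cannot be told apart.

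Timd4, the phosphatidylserine receptor, had the widest gap. It was at 23.8, 28.3 and 10.4 CPM in Tg+ and 45.2, 27.4 and 25.9 CPM in Bag3-WT fibroblasts, and at 3.59, 2.78 and 0.412 CPM in Tg+ and 2.97, 3.20 and 4.38 CPM in Bag3-WT cardiomyocytes. The lowest fibroblast value was thus above the highest cardiomyocyte value. The log2 fold change was -3.25 (SE 0.27, edgeR adjusted p = 6.28e-06), a level 9.51-fold lower in cardiomyocytes.

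The receptors of endocytosis and clearance were lower by about the same amount. Cd163, the haemoglobin scavenger, differed by -2.50 on the log2 scale (SE 0.25, edgeR adjusted p = 2.55e-05), with 76.5 to 323 CPM in fibroblasts and 12.6 to 45.3 CPM in cardiomyocytes. Siglec1 differed by -2.36 (SE 0.29, edgeR adjusted p = 1.05e-04), and its fibroblast range of 21.4 to 93.6 CPM overlapped its cardiomyocyte range of 3.85 to 29.9 CPM through Tg mouse 3 and WT mouse 2. Mrc1 differed by -2.21 (SE 0.22, edgeR adjusted p = 2.21e-05), from 129 to 420 CPM in fibroblasts to 24.3 to 88.0 CPM in cardiomyocytes. These 3 receptors were thus 4.63- to 5.65-fold lower in cardiomyocytes, and the cell types overlapped only for Siglec1.

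F13a1, the factor XIII subunit, and Folr2, the folate receptor, followed. F13a1 differed by -2.11 (SE 0.21, edgeR adjusted p = 2.64e-05), with 220 to 766 CPM in fibroblasts and 48.7 to 153 CPM in cardiomyocytes. Folr2 differed by -2.09 (SE 0.20, edgeR adjusted p = 1.54e-05), with 58.5 to 222 CPM and 13.2 to 44.2 CPM.

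Lyve1 and Mertk had the narrowest called gaps. Lyve1 was at 172, 87.6 and 129 CPM in Tg+ and 201, 124 and 141 CPM in Bag3-WT fibroblasts, and at 76.6, 55.0 and 15.3 CPM in Tg+ and 45.9, 60.5 and 47.3 CPM in Bag3-WT cardiomyocytes. All 6 fibroblast values exceeded all 6 cardiomyocyte values, and the log2 fold change was -1.59 (SE 0.30, edgeR adjusted p = 0.00168). Mertk was at 21.9, 21.4 and 22.2 CPM in Tg+ and 30.8, 17.8 and 31.1 CPM in Bag3-WT fibroblasts, and at 13.5, 16.6 and 4.67 CPM in Tg+ and 6.24, 16.9 and 9.40 CPM in Bag3-WT cardiomyocytes. The groups came close at WT mouse 2 without overlapping, and the log2 fold change was -1.20 (SE 0.32, edgeR adjusted p = 0.0111). In the 3 Tg+ mice alone neither gene was called, with adjusted p = 0.0952 for Lyve1 and 0.15 for Mertk.

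Marco and Cd5l were not called between cell types (edgeR adjusted p = 0.0834 and 0.0579), and the cell types overlapped for each. Their log2 fold changes were -2.0 (SE 0.87) and -1.30 (SE 0.51). Marco passed the filter only through the Bag3-WT fibroblasts, where it was high, and neither gene passed it in cardiomyocytes alone. The calls changed with the settings: Marco was called in 4 of 17 alternatives, among them leaving out WT mouse 1 (adjusted p = 0.0493), and Cd5l in 6 of 18, among them leaving out Tg mouse 1 (adjusted p = 0.0491). Over all alternatives the adjusted p ran from 0.00434 to 0.338 for Marco and from 0.00939 to 0.509 for Cd5l.

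Other macrophage genes moved with the members. Of the 15 core macrophage genes 14 fell in cardiomyocytes, with a median log2 difference of -2.11 over the list, close to that of the members. The lowest p-values belonged to Cd14, the lipopolysaccharide co-receptor (-4.72, SE 0.24), Cd68, a lysosomal glycoprotein of macrophages (-3.46, SE 0.26), and Itgam, the CD11b integrin (-2.41, SE 0.19). Cx3cr1, the fractalkine receptor, did not pass the test (0.18, SE 0.25). Of 15 other resident macrophage genes that were tested 14 fell, with a median of -1.64, led by Pf4 (-2.34, SE 0.24), Clec4n (-2.20, SE 0.24) and Ccl24 (-1.70, SE 0.20). The transcription factor gene Maf did not (-0.14, SE 0.20).

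Genes near the members in function were compared between the cell types in the same fit. Of 17 other scavenger receptors that were tested 8 fell and 1 rose, with a median of -0.76. Cd68, Cxcl16 (-2.93, SE 0.24) and the oxidised lipoprotein receptor Olr1 (-5.99, SE 0.58) had the lowest p-values. Olr1 and Cd6 (-2.88, SE 0.70), both among the 8, did not pass the filter on low counts in cardiomyocytes alone. Their falls were thus largely fixed by the filter. Of 16 genes of apoptotic cell uptake 5 fell and 2 rose, with a median of -0.31. The cholesterol exporter Abca1 (-3.08, SE 0.26), the clearance receptor Stab1 (-1.59, SE 0.25) and the engulfment gene Elmo1 (-1.40, SE 0.26) led that list. The Mertk ligand gene Pros1 fell by 0.81 on the log2 scale (SE 0.20), while Gas6 (-0.43, SE 0.18) did not pass the test. Of 6 genes of CSF1 and related growth factor signalling 5 fell, with a median of -3.18 over the list. The receptor genes Csf2rb (-4.39, SE 0.29), Csf2ra (-3.98, SE 0.28) and Csf1r (-2.37, SE 0.24) led it. Another of the 5, Csf2 (-5.79, SE 0.79), did not pass the filter on low counts in cardiomyocytes alone. The fall of Csf2 was thus also largely fixed by the filter. Of 10 genes of recruited monocytes 2 fell, Ms4a4c (-1.73, SE 0.55) and Plac8 (-1.0, SE 0.34), and the median was -0.20.

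Markers of cells that share a member were measured beside them. Of 6 lymphatic endothelial genes, which share Lyve1, 3 fell with a median of -0.67: Pdpn (-1.40, SE 0.34), Flt4 (-0.78, SE 0.26) and Reln (-1.0, SE 0.36). Their summed level was 162 to 320 CPM in fibroblasts and 49.2 to 217 CPM in cardiomyocytes. Of 3 platelet genes that were tested, which share F13a1 with macrophages, all 3 fell, and the 6 genes of the list summed to 3.71 to 13.0 CPM in fibroblasts and 0.275 to 2.61 CPM in cardiomyocytes. Other leukocyte genes fell in part: 4 of 5 B cell genes, led by Cd79a (-2.29, SE 0.39), 1 of 5 T cell genes, Cd4 (-1.73, SE 0.37), and 2 of 4 neutrophil genes, led by Csf3r (-3.29, SE 0.41). Of genes known from macrophages of other sites, all 4 tested Kupffer cell genes fell, led by Spic (-7.12, SE 0.61). Of 7 peritoneal genes 4 fell and 1 rose, and 1 of 6 alveolar genes fell. The filter on low counts, applied to cardiomyocytes alone, kept 0 platelet genes, 2 B cell genes and 2 Kupffer cell genes. For genes that passed it through fibroblasts alone, a lower level in cardiomyocytes was largely fixed by the filter. Of 6 endothelial genes 2 fell, Cldn5 (-2.39, SE 0.31) and Tie1 (-0.81, SE 0.22). The part of these cells in the members' values was not tested.

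**Figure D3:**
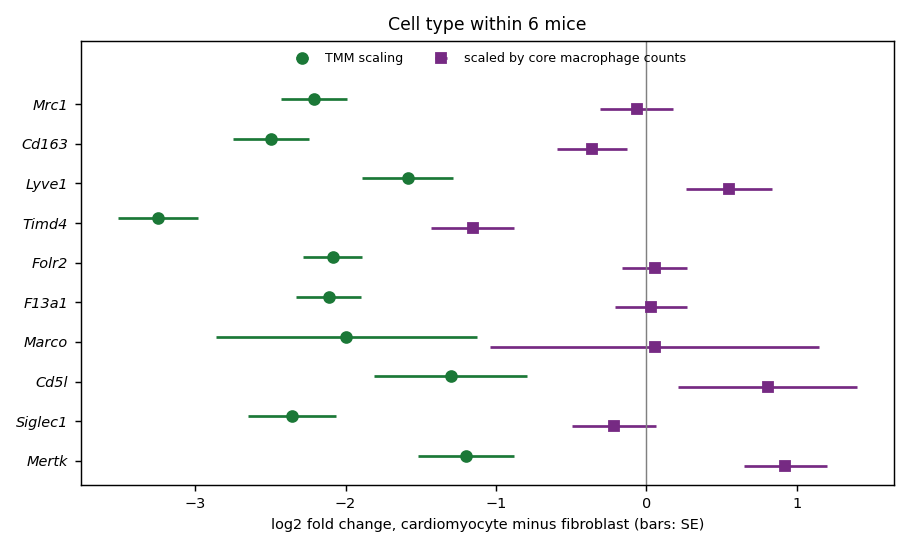
Log2 fold change of each member, cardiomyocyte minus fibroblast within 6 mice, with bars of 1 SE; circles use TMM scaling and squares scale each column by its core macrophage counts. With TMM scaling all 10 points are below 0, and relative to core macrophage counts Timd4 stays below 0 at -1.16 while Mertk is at 0.93.

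To see whether members differed from macrophage RNA in general, each column was also scaled by its summed counts of the 15 core macrophage genes, a choice made after the data had been seen. On that scale Timd4 was still lower in cardiomyocytes (log2 fold change -1.16, SE 0.28, edgeR adjusted p = 0.00162) and Mertk was higher (0.93, SE 0.27, edgeR adjusted p = 0.00678). This scaling moved the median of all genes to 2.09 and called 81% of them higher and 3.51% lower, so Mertk was called higher together with most genes, and its difference was smaller than that median. The other 8 members were not called: Mrc1 (-0.06, SE 0.24), Folr2 (0.06, SE 0.22), F13a1 (0.03, SE 0.24), Siglec1 (-0.21, SE 0.28), Cd163 (-0.36, SE 0.23), Lyve1 (0.55, SE 0.28), Cd5l (0.81, SE 0.60) and Marco (0.05, SE 1.09). Without Tg mouse 3 Lyve1 was called higher (0.79, adjusted p = 0.00897).

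The raw ratios show the same. As a percentage of core macrophage counts, F13a1 was at 8.46 to 10.9 in all 12 columns, Mrc1 at 4.01 to 6.62 and Folr2 at 2.36 to 3.19. Timd4 was at 0.423 to 0.624% in fibroblasts and 0.0920 to 0.325% in cardiomyocytes, without overlap. Mertk averaged 0.411% in Bag3-WT and 0.639% in Tg+ fibroblasts and 0.762% and 1.14% in the cardiomyocytes of the same mice, and the Tg+ fibroblasts of mouse 3 (0.975%) lay within the cardiomyocyte range. Lyve1 ran from 1.63 to 5.68% in fibroblasts and from 3.35 to 6.92% in cardiomyocytes. Over all 12 columns Cd163 ran from 2.40 to 4.46%, Siglec1 from 0.612 to 1.77%, Marco from 0 to 0.234% and Cd5l from 0 to 0.190%. F13a1, Mrc1 and Folr2 thus varied least relative to the core genes, and the other members more.

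**Figure D4:**
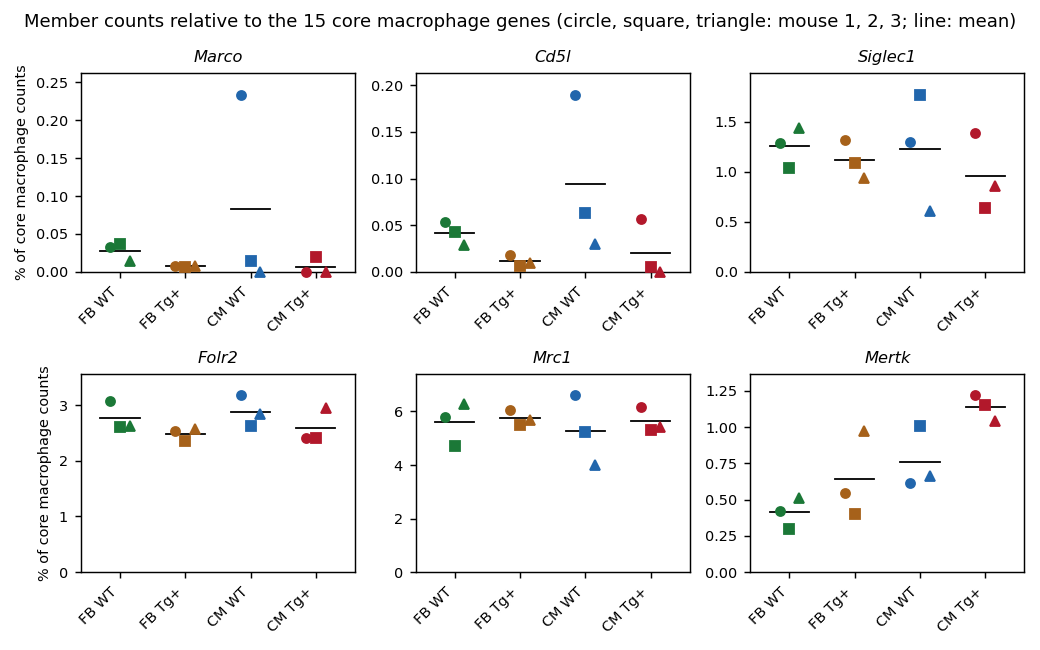
Counts of 6 members as a percentage of the summed counts of 15 core macrophage genes in each column (FB fibroblast, CM cardiomyocyte; circles, squares and triangles are mouse 1, 2 and 3, lines are means). Marco and Cd5l are lower in Tg+ than in Bag3-WT fibroblasts on this scale too, the cardiomyocytes of WT mouse 1 are the highest for both, and Folr2 and Mrc1 keep narrow ranges.

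In fibroblasts, all 10 members had a lower mean level in Tg+ than in Bag3-WT mice. The log2 difference was below 0 for 48.7% of all genes, and its median was -0.79 over the members and 0.01 over all genes. Since the set was chosen with this comparison in view, these values are a description. No gene of the 13571 tested was called in it by edgeR (0% lower and 0% higher; 690 had an unadjusted p below 0.05, and DESeq2 called 6). The groups did not overlap for 4 members, Marco, Cd5l, Folr2 and Siglec1, while 7.76% of all genes were lower and 5.25% higher in Tg+ without overlap. Core macrophage genes were lower in the same libraries: their summed level was 4035, 5358 and 2274 CPM in Tg+ and 7239, 5924 and 6117 CPM in Bag3-WT fibroblasts, which did not overlap. All 15 had negative differences, with a median of -0.73, and so did all 15 of the other resident macrophage genes, with a median of -0.79. Genes of other leukocytes were below 0 in part: 7 of 10 recruited monocyte genes (median -0.64) and 4 of 5 T cell genes (-0.89). So were 4 of 5 B cell genes (-0.16) and 2 of 4 neutrophil genes (-0.16). Values relative to the core macrophage genes are given beside each member, and the part of macrophage content in the members' values was not tested otherwise.

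Marco, the class A scavenger receptor, had 11, 10 and 5 counts in the fibroblasts of Tg mouse 1, 2 and 3 and 84, 76 and 23 counts in those of WT mouse 1, 2 and 3. As CPM these were 0.302, 0.315 and 0.175 against 2.34, 2.16 and 0.853. Every Tg+ library was below every Bag3-WT library, and WT mouse 3 was the lowest of its group. The log2 fold change was -2.71 (SE 0.50), or -1.82 in the second deposited table. As a share of core macrophage counts Marco was at 0.00749, 0.00589 and 0.00769% in Tg+ and 0.0324, 0.0364 and 0.0139% in Bag3-WT fibroblasts, a log2 difference of -1.98 with no overlap.

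Cd5l, the secreted macrophage protein, had 26, 11 and 6 counts in Tg+ and 138, 89 and 47 counts in Bag3-WT fibroblasts, in the same order of mice. As CPM these were 0.715, 0.347 and 0.210 against 3.85, 2.52 and 1.74. The groups were again apart, with mouse 1 the highest and mouse 3 the lowest in each. The log2 fold change was -2.62 (SE 0.50). As a share of core macrophage counts it was at 0.0177, 0.00648 and 0.00923% in Tg+ and 0.0531, 0.0426 and 0.0285% in Bag3-WT fibroblasts, a log2 difference of -1.88 with no overlap. With the code letter as a covariate the differences were -2.76 for Marco and -2.81 for Cd5l.

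Folr2 was at 103, 127 and 58.5 CPM in Tg+ and 222, 154 and 161 CPM in Bag3-WT fibroblasts (-0.88, SE 0.30). Siglec1 was at 53.4, 58.6 and 21.4 CPM in Tg+ and 93.6, 61.6 and 88.3 CPM in Bag3-WT fibroblasts (-0.85, SE 0.37), and Tg mouse 2 came close to WT mouse 2. Relative to core macrophage counts these differences were -0.15 and -0.17. Marco and Cd5l differed more on that scale, but they were chosen as lower in these same libraries, so the contrast is a description.

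The remaining members overlapped between genotypes in fibroblasts. Their log2 differences were -0.88 for Cd163 (SE 0.37), -0.72 for F13a1 (SE 0.35), -0.68 for Mrc1 (SE 0.33), -0.64 for Timd4 (SE 0.37), -0.26 for Mertk (SE 0.22) and -0.24 for Lyve1 (SE 0.30). Relative to core macrophage counts the first 4 lay between -0.14 and 0.06, and Lyve1 (0.69) and Mertk (0.63) were positive. That scaling moved the median of all genes to 0.88, so both these values lay below that median. Lyve1 was at 0.30 and Mertk at 0.20 once Tg mouse 3 was left out, and Lyve1 at 1.05 without Tg mouse 2. With TMM scaling and a mouse left out, Lyve1 ran from -0.50 to -0.024 (-0.027 without Tg mouse 2, -0.024 without WT mouse 1) and Mertk from -0.48 (without WT mouse 2) to -0.12 (without WT mouse 3). With scaling by library size alone, which moved the median of all genes to 0.36, Lyve1 (0.18) and Mertk (0.14) turned positive and the other 8 stayed negative. Tg mouse 3 was the lowest fibroblast library for Mrc1, Cd163, Timd4, Folr2, F13a1, Marco, Cd5l and Siglec1. Without it the median of the 10 members was -0.47.

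Markers of macrophages from other sites were measured in the same fibroblast libraries, since Marco and Cd5l are known there. The 9 genes known from alveolar macrophages summed to 30.8, 35.2 and 36 CPM as the lowest, median and highest of the Tg+ libraries. In Bag3-WT they summed to 40.6, 40.6 and 48.8 CPM, without overlap. Of the 6 tested 5 were below 0, with a median log2 difference of -1.09. Itgax (-0.82) and Car4 (0.96) had the highest levels in that list, at 19.0 and 12.5 CPM, and neither is restricted to alveolar macrophages. Ear2 had 25, 84 and 10 counts in Tg+ and 139, 193 and 64 in Bag3-WT fibroblasts, which overlapped, and Ear1 had 1 count in all. Siglecf had 21, 10 and 1 counts in Tg+ and 15, 17 and 13 in Bag3-WT fibroblasts (-0.52, SE 0.72), which also overlapped. Plet1 had 53, 50 and 33 counts in Tg+ and 160, 159 and 54 in Bag3-WT fibroblasts (-1.37, SE 0.35). The groups did not overlap for Plet1, which was named after its values had been seen. Of the lung epithelial genes Napsa averaged 6.43 CPM in fibroblasts and Scgb1a1 0.468 CPM, the latter mostly from Tg mouse 1 with 89 counts, and the list of 12 summed to 3.29 to 11.9 CPM in Tg+ and 6.56 to 9.81 CPM in Bag3-WT.

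Genes of Kupffer cells, the macrophages of the liver, summed to 23.6 to 122 CPM in Tg+ and 109 to 139 CPM in Bag3-WT fibroblasts, most of it from Slc40a1 and Spic, which other iron-handling macrophages express. Clec4f, which defines Kupffer cells, had 2, 2 and 2 counts in Tg+ and 18, 18 and 2 in Bag3-WT. Liver genes summed to 0.245 to 1.57 CPM over all 6 libraries. Genes of peritoneal macrophages, led by Selp and Prg4, summed to 170 to 259 CPM in Tg+ and 177 to 278 CPM in Bag3-WT, and their median log2 difference was -0.16. Alox15 of that list had 69, 26 and 6 counts in Tg+ and 343, 187 and 94 in Bag3-WT fibroblasts, and it was singled out after its values had been seen. The part of macrophages from other sites in the Marco and Cd5l values was not tested.

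**Figure D5:**
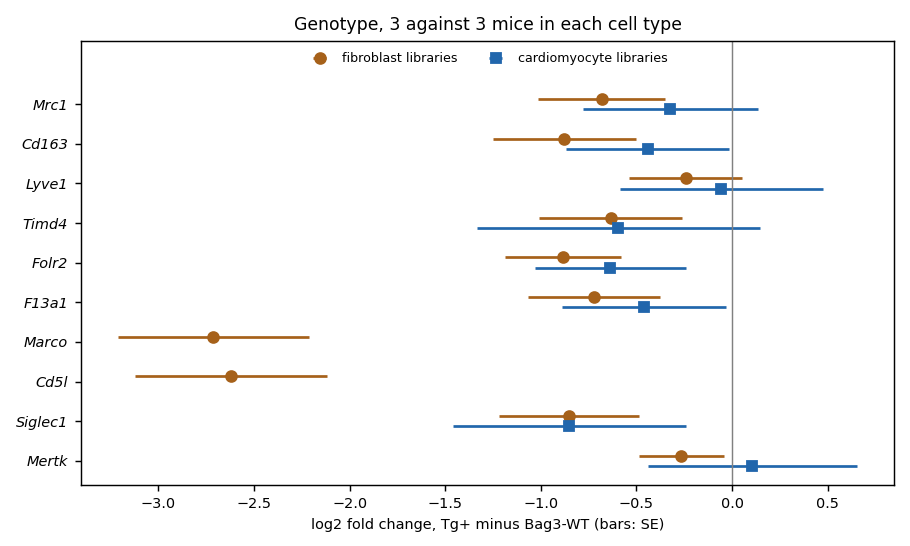
Log2 fold change of each member, Tg+ minus Bag3-WT, in fibroblast libraries (circles) and cardiomyocyte libraries (squares), 3 against 3 mice, with bars of 1 SE. Marco (-2.71) and Cd5l (-2.62), chosen as lower in Tg+ fibroblasts, lie far below the other members there. They are not drawn for cardiomyocytes, where they did not pass the filter on low counts.

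The genotype comparison was then made in cardiomyocytes, which were not used to choose the members. There 8 members passed the filter on low counts, and 0 of them were called (edgeR, adjusted p = 1.00 for each). The test called 0% of 12439 genes in either direction (89 had an unadjusted p below 0.05, and DESeq2 called 3 genes). The genotypes overlapped for all 8, while 2.69% of all genes were lower and 2.32% higher in Tg+ without overlap. Their differences on the log2 scale were -0.85 for Siglec1 (SE 0.61), -0.64 for Folr2 (SE 0.39), -0.59 for Timd4 (SE 0.74), -0.46 for F13a1 (SE 0.43), -0.44 for Cd163 (SE 0.43), -0.32 for Mrc1 (SE 0.46), -0.06 for Lyve1 (SE 0.53) and 0.11 for Mertk (SE 0.55). Single mice moved these uncalled values: without Tg mouse 3 they were -0.13 for Timd4, -0.11 for Cd163, -0.13 for F13a1, -0.33 for Folr2 and -0.48 for Siglec1, and Siglec1 was -0.19 without WT mouse 2 and -1.36 without Tg mouse 1. The median over these 8 was -0.45 (-0.13 without Tg mouse 3, when 9 members passed the filter), and over the 15 core macrophage genes it was -0.48. With scaling by library size alone, which moved the median of all genes to 0.84, none of the 8 was negative and their median was 0.46.

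Marco and Cd5l did not pass the filter on low counts in cardiomyocytes. Marco had 0, 4 and 0 counts in Tg mouse 1, 2 and 3 and 16, 2 and 0 counts in WT mouse 1, 2 and 3. Where the count was 0, levels of up to 0.118, 0.412 and 0.320 CPM were possible in Tg mouse 1, Tg mouse 3 and WT mouse 3. The 16 counts of WT mouse 1 came from both of its libraries (4 and 12), and made 2.38 CPM, beside 2.34 CPM in the fibroblasts of the same mouse. Cd5l had 16, 1 and 0 counts in Tg+ and 13, 9 and 4 counts in Bag3-WT cardiomyocytes, or 0.632, 0.0712 and 0 CPM against 1.93, 1.07 and 0.427 CPM. Tg mouse 1 was inside the Bag3-WT range, so the genotypes overlapped for Cd5l. Whether the low depth hid a difference was not tested. Fitted without the filter, neither was called (edgeR adjusted p = 1.00 for each), with log2 differences of -3.01 for Marco (SE 1.96) and -2.05 for Cd5l (SE 1.37).

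The members differed in how far they followed one another. Over the 12 columns, which share cell type as a large source of variation, Pearson's r of log2(CPM + 1) was 0.995 between Folr2 and F13a1, 0.994 between Cd163 and F13a1 and 0.991 between Mrc1 and Cd163. Within the 6 fibroblast columns Mrc1 and Siglec1 (r = 0.995) and Mrc1 and F13a1 (r = 0.994) stayed together, while Lyve1 correlated at 0.23 with F13a1 and at 0.26 with Mrc1. Marco and Cd5l had r = 0.96 in fibroblasts and 0.75 in cardiomyocytes, and Marco had r = 0.19 with Mertk in fibroblasts. Marco and Cd5l were chosen as lower in Tg+ fibroblasts, and that choice favoured a high r between them there. All are descriptions over columns that share mice and genotype.

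Among genes averaging 5 CPM or more in fibroblasts, the patterns most like those of the members over the 12 columns were the following. For Mrc1 they were P2ry6, a nucleotide receptor (r = 0.997), and the endocytic adaptor Dab2 (0.996). Cd163 had Psd4 (0.992) and Ptprc, the leukocyte antigen CD45 (0.990), and Timd4 had the kinase Syk (0.993) and the amino acid transporter Slc7a8 (0.989). Folr2 had Fcrls (0.994) and Itgam (0.993), F13a1 had Nckap1l (0.996) and Cd300ld (0.995), and Siglec1 had Rhobtb1 (0.989) and Abca9 (0.986). Lyve1 had Cmtr1 (0.962) and Hip1 (0.957), and Mertk had Pid1 (0.960) and Lactb2 (0.959). Marco (Bri3 0.840, Bop1 0.824) and Cd5l (Chmp1b 0.884, Slpi 0.846) had no gene as close.

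Within the 6 fibroblast columns the genes most like Marco were Mdh2, the mitochondrial malate dehydrogenase (r = 0.995), Rnf130 (0.982), the actin nucleator subunit Arpc4 (0.981), Mrpl10 (0.981) and Dync1i2 (0.976). Those most like Cd5l were Rnaset2a (0.989), Scp2 (0.987), Ccdc115 (0.985), Gtf2f2 (0.985) and Frg1 (0.984). These genes varied little: Mdh2 ran from 51.9 to 67.5 CPM and Ccdc115 from 10.2 to 11.4 CPM, while Marco ran from 0.175 to 2.34 CPM. With 6 columns and many candidate genes such values of r describe these libraries alone.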

How the data were processed

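RNA sequencing of 18 libraries from 6 mice was analysed. The deposited tables were an estimated count per gene (expected counts, 44.6% not whole within a tolerance of 1e-06) and a normalized signal, which the authors obtained by dividing by a factor that differs between genes and libraries, as read from the values. Per the submitters' processing notes the software comprised DESeq2 1.18.1, kallisto 0.44.0 and R 3.4.4 and the build was GRCm38.p6; their roles, the annotation and any filters are not stated. The values of Marco, Cd5l and Timd4 were whole in all 18 libraries.

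The repeats of each mouse (rep1, rep2) were added up before rounding. Whether these repeats are separate preparations is not stated. Tests used edgeR 4.0.16 in R 4.3.3: filterByExpr (minimum count 10), TMM, robust glmQLFit and glmQLFTest, two-sided, Benjamini-Hochberg adjusted p below 0.05 over all genes tested. SE is the size of the log2 fold change divided by the square root of F. Cell type was fitted with the mouse as a block (13891 genes) and genotype in cardiomyocytes alone (12439) and fibroblasts alone (13571, members untested). Groups of 3 mice limit every comparison, and p-values measure only the spread between these mice. DESeq2 1.42.0, limma 3.58.1 voom, other scalings and filters, the second table (log2 of the deposited signal plus 1, with limma), single repeats, the code letter and leaving out each mouse were alternatives. Scaling by core macrophage counts was added after seeing the data. Named genes were the 10 members and, from each companion list, up to 3 of those with the lowest p between cell types. Up to 2 with the highest fibroblast level were added from lists of other organs or cells. The genes most like a member by Pearson's r of log2(CPM + 1) were also named. A few more were named as list exceptions or after their values had been seen. Some genes that met these rules were left unnamed. The members, lists and tests were chosen with earlier results of these data known. The fits were tested on simulated data. Repeat numbers did not pair mice: between genotypes, deviations of same-numbered libraries had a mean r of 0.0142 (-0.475 to 0.440), against 0.585 for repeats of a mouse.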

Additional observations from a re-analysis of the deposited data

How the results depend on the processing

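The 8 members called between cell types ranged from 6 to 10 over 18 alternatives (8 or 9 when each mouse was left out), and all members that could be fitted were negative in each. The number of genes called between cell types was 6190, and 5038 to 6821 with a mouse left out. It was 1628 in Tg mice alone and 3777 in WT mice alone, which use fewer mice. With no replicate block, so that the mouse was not a term and the pairing was ignored, it was 6703, and 8 members were called. In cardiomyocytes 0 members were called between genotypes in all 18 alternatives; 0 genes became 3 with DESeq2 and 2 with library size only. In fibroblasts 0 genes became 6 with DESeq2 and 2 with library size only. With the rep number as a replicate block and the mouse as a random effect, the cardiomyocyte difference of Siglec1 was -0.66, and 0 members were called.

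Uncalled cardiomyocyte differences changed sign as follows. With library size only they were 0.67 for Mrc1, 0.49 for Cd163, 1.01 for Lyve1, 0.38 for Timd4, 0.23 for Folr2, 0.42 for F13a1 and 0.33 for Siglec1. Lyve1 was 0.020 with the letter as a covariate and 0.017 in rep1 libraries alone, and Mertk was -0.22 in rep1 libraries alone and -0.19 in the second deposited table. With a mouse left out, Mrc1 ran from -0.60 to 0.039 (0.039 without Tg mouse 3), Lyve1 from -0.51 to 0.37 (0.37 without Tg mouse 3, 0.09 without WT mouse 2) and Mertk from -0.23 to 0.58 (-0.23 without Tg mouse 2, -0.14 without WT mouse 1). Relative to core macrophage counts, uncalled cell type differences changed sign without Cd14 in the list for Folr2 (-0.10), F13a1 (-0.13) and Marco (-0.10), for Mrc1 without WT mouse 3 (0.050; range -0.12 to 0.050 with a mouse left out) and for Marco without Tg mouse 2 (-0.61) or WT mouse 1 (-1.04; range -1.04 to 0.47). Apart from the scalings, the cause was not tested. Low counts limit what can be said of Marco and Cd5l in cardiomyocytes, where at most 16 counts were seen in a mouse.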
